A study of Homo sapiens with 12 samples.

Results

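The 35 genes described here encode SNARE proteins of vesicle transport and were taken from the deposited count table by gene symbol. All 35 were found among its 60987 rows, and 33 had enough counts to be tested. The libraries are RNA-seq of wild-type HCT116, a long-established line of human colorectal carcinoma, grown with 10% fetal bovine serum and antibiotics. Cells were cystine-deprived, in DMEM with 0 mM cystine, or were controls in full DMEM, and each medium was sampled at 48 h and at 24 h. Cystine is the oxidised dimer of the amino acid cysteine and the form in which culture medium supplies it. Each of the 4 groups has 3 samples, and the comparisons ask what withholding cystine changed at each time.

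SNAREs are small, mostly membrane-anchored proteins that drive the fusion of transport vesicles with their target membranes. Each contributes a helical motif to a bundle of 4 helices, and members are classed as Qa, Qb, Qc, Qbc or R by the glutamine or arginine at its centre and by the place of their motif. A fusing bundle holds 1 motif of each Q kind and an R motif, with SNAP23 and its relatives supplying Qb and Qc together. Different sets act at different steps: STX5 and its partners between the endoplasmic reticulum (ER) and the Golgi, STX16 and STX6 at the trans-Golgi network, STX7 and STX17 at late endosomes, lysosomes and autophagosomes, and STX3, STX4 and SNAP23 at the plasma membrane. In epithelial cells such as these they carry newly made proteins to the surface and return membrane to the ER and Golgi.

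The total estimated count lay between 19146108 and 24179533 per sample. Levels are given as CPM, each count relative to a fixed library total with TMM scaling, and a log2 fold change is given ± its standard error (SE). A gene is said to rise or fall where edgeR's quasi-likelihood test with Benjamini-Hochberg adjustment over all 16994 tested genes gave an adjusted p under 0.05. By the labels, only the deprived cells were washed and given new medium, so that handling and the loss of cystine cannot be told apart. Nothing in the labels shows whether replicates were grown apart, and the p-values therefore reflect sample-to-sample spread that may be technical. CPM are shares of a library, and in bulk samples fewer cells with a transcript and less of it per cell cannot be told apart. Of 10 colorectal epithelial markers, 8 averaged at least 1 CPM, led by KRT8 at 2080 CPM, while CDX1 was listed at 0 in every sample and LGR5 did not pass 0.128 CPM. KRT20 and VIL1 passed 1 CPM narrowly, at means of 1.27 and 1.09 CPM. The summed level of the 10 was 4730 to 5270 CPM in deprived cells at 48 h, against 3980 to 4400 CPM in controls, and 5080 to 5210 CPM in deprived cells at 24 h, against 3680 to 4090 CPM in controls. The keratins KRT8, KRT19 and KRT18, at means of 2080, 1200 and 836 CPM, were the largest parts of that sum. The leukocyte markers PTPRC and CD3E were at 0 throughout, and the 5 leukocyte markers together stayed under 1 CPM in every sample. Of 6 fibroblast markers only COL1A1 averaged at least 1 CPM, and their sum was 20.3 to 22.6 CPM in deprived cells at 48 h against 44.6 to 49.3 CPM in controls, and 16.3 to 20.7 CPM in deprived cells at 24 h against 32.3 to 34.2 CPM in controls. Of 4 endothelial markers VWF alone did, at a mean of 1.2 CPM. The part of these shifts in the SNARE results was not tested.

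After 48 h without cystine, SNARE transcripts were more often higher than lower. Of the 33 tested, 21 rose (63.6%), 4 fell (12.1%) and 8 did not pass the test, whereas 33.5% of all tested genes rose and 34.9% fell in the same comparison. The median log2 fold change of the 33 was 0.53, against -0.02 over all tested genes. With upper-quartile scaling the split was 20 higher and 7 lower, and with library totals as the scale it was 21 and 7. After 24 h, 12 rose (36.4%) and 5 fell (15.2%), beside 28.8% and 26.9% of all tested genes, so the share that rose was close to the background. Their median at 24 h was 0.10 on the log2 scale, against -0.01 over all genes. By transport step, the ER and Golgi set held 10 of the 21 rises at 48 h and 8 of the 12 at 24 h.

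**Figure D1:**
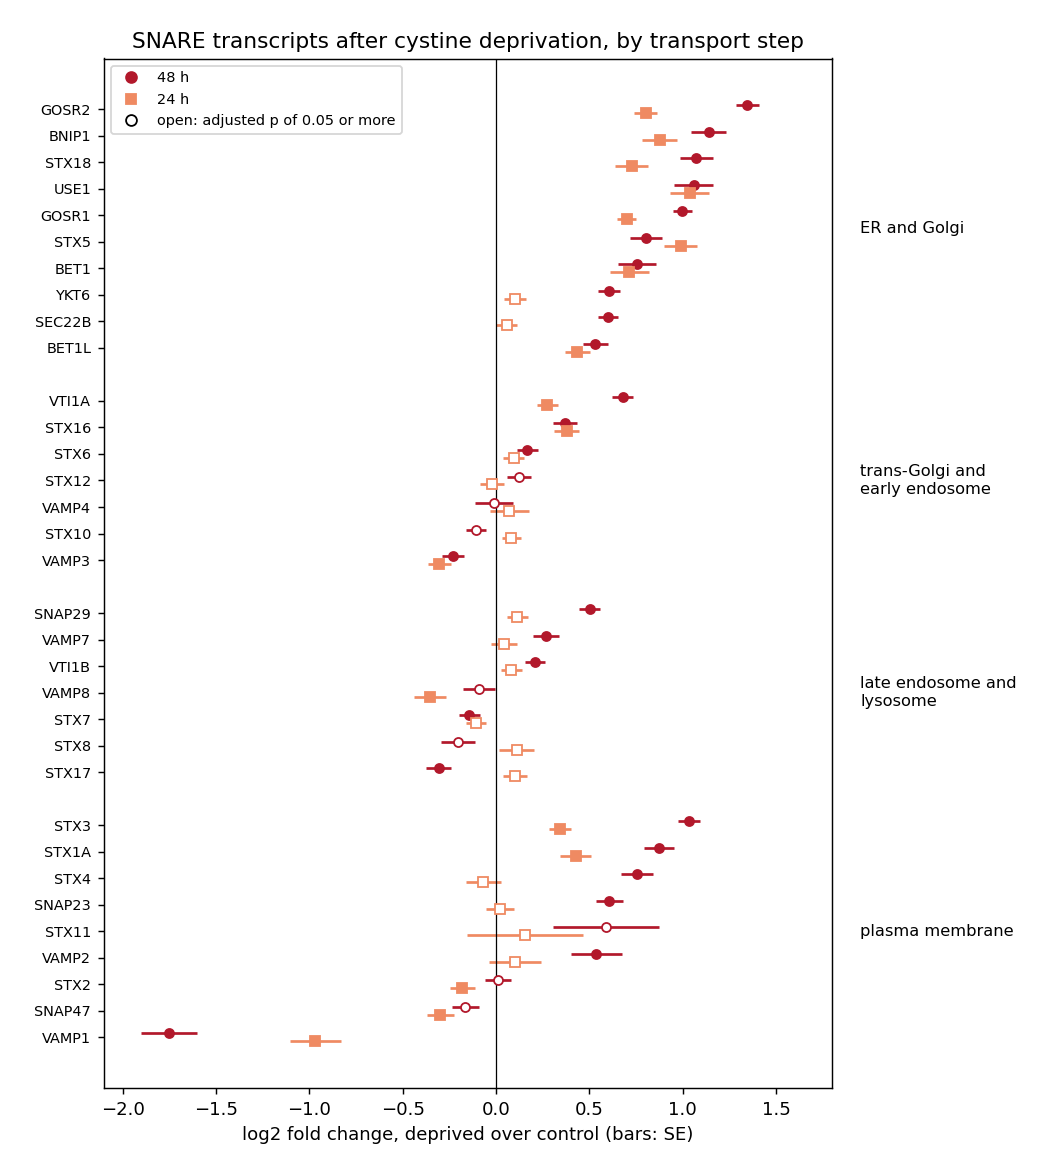
Log2 fold change, deprived over control, of the 33 tested SNARE genes at 48 h (circles) and 24 h (squares), grouped by transport step; bars are SE, and open symbols mark an adjusted p of 0.05 or more. All 10 ER and Golgi genes lie between 0.53 and 1.35 at 48 h, and VAMP1 lies lowest at -1.75.

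All 10 SNAREs that act between the ER and the Golgi rose at 48 h, beside 33.5% of all tested genes. Their log2 fold changes were 0.53 to 1.35, with a median of 0.90. GOSR2, also called membrin, is the Qb SNARE that joins STX5 for fusion of ER-derived vesicles at the cis-Golgi (chromosome 17, 46923075 to 46975524, GRCh38, in GENCODE release 29). It had 77.7, 78.8 and 79.6 CPM in deprived cells at 48 h, against 31.2, 29.3 and 32.4 CPM in controls. Every deprived sample was more than 2-fold above every control, and the fitted rise of 2.54-fold (log2 1.35 ± 0.06, adjusted p 4.64e-13) was the largest of the 33. The protein-coding gene AC005670.2 overlaps GOSR2 on the same strand by 52392 bases. AC005670.2 had 9.84% of the counts of GOSR2 and rose by 0.71 ± 0.18 at 48 h. Estimated counts can be split between these overlapping genes, and the part of this in the rise of GOSR2 was not tested. STX5, the Golgi Qa SNARE at the centre of these complexes (chromosome 11, 62806897 to 62832088), had 41, 45.8 and 47.2 CPM in deprived cells at 48 h, against 22.8, 28.7 and 25.4 CPM in controls. The groups did not overlap, and the log2 rise was 0.80 ± 0.09 with an adjusted p of 1.01e-07.

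The remaining partners of STX5 rose at 48 h too. BET1, the Qc SNARE of the ER-to-Golgi complex (chromosome 7, 93962762 to 94004382), had 26.3, 23 and 21 CPM in deprived cells at 48 h, against 12.6, 13.4 and 15.7 CPM in controls, a log2 rise of 0.76 ± 0.10. SEC22B, its R SNARE (chromosome 1, 120150898 to 120176515), had 94.9, 97.8 and 94.9 CPM in deprived cells at 48 h, against 62.8, 61.6 and 65.1 CPM in controls, a log2 rise of 0.60 ± 0.05. The lowest deprived sample stood above the highest control for each. GOSR1, or GS28, is the Qb SNARE used for transport within the Golgi (chromosome 17, 30477362 to 30527592) and had 86.1, 85.7 and 90.4 CPM in deprived cells at 48 h, against 44.9, 42.7 and 43.6 CPM in controls. Its fitted fold was 2.00, with log2 1.00 ± 0.05 and an adjusted p of 2.12e-12. BET1L, the Qc SNARE GS15 that works with GOSR1, had 67.6, 73.1 and 71.3 CPM in deprived cells at 48 h, against 47.8, 49.9 and 49 CPM in controls, the smallest rise of the 10 at 0.53 ± 0.07 on the log2 scale. YKT6, a lipid-anchored R SNARE that completes this complex, had 117, 129 and 132 CPM in deprived cells at 48 h, against 78.5, 86.8 and 83.4 CPM in controls. Its log2 rise was 0.60 ± 0.06 (adjusted p 2.66e-08), and its groups did not overlap.

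STX18, BNIP1 and USE1 form the complex that receives vesicles returning from the Golgi to the ER, with SEC22B as the R SNARE. STX18, its Qa member (chromosome 4, 4415742 to 4542346), had 34.3, 38.6 and 41.9 CPM in deprived cells at 48 h, against 16.1, 18.3 and 20.2 CPM in controls. BNIP1, its Qb member, also known as Sec20 (chromosome 5, 173144442 to 173164387), had 22, 26.2 and 24.6 CPM in deprived cells at 48 h, against 10.05, 12 and 11 CPM in controls. USE1, its Qc member (chromosome 19, 17215346 to 17219829), had 18.5, 19.8 and 21.9 CPM in deprived cells at 48 h, against 8.60, 9.27 and 11 CPM in controls. All 3 stood near 2-fold above control, at 2.10-fold, 2.20-fold and 2.08-fold in that order, with adjusted p-values of 3.02e-09, 2.04e-09 and 2.76e-08. The antisense gene STX18-AS1, which overlaps STX18 by 216 bases and had 40.7% of its counts, also rose, by 0.89 ± 0.13 on the log2 scale. Without strand, reads from the shared bases cannot be told apart, and their part in the counts was not measured.

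Of the 10 genes, 8 had already risen at 24 h, and 0 fell by edgeR's adjusted p, by its unadjusted p under 0.05 or by DESeq2. Of all tested genes, 28.8% rose and 26.9% fell at 24 h by edgeR's adjusted p. GOSR2 had 67.3, 72.2 and 68.3 CPM in deprived cells at 24 h, against 36.7, 39.9 and 42.6 CPM in controls, a log2 rise of 0.80 ± 0.06. USE1 had 18.3, 20.2 and 20.1 CPM in deprived cells at 24 h, against 9.55, 10.4 and 8.66 CPM in controls, a log2 rise of 1.04 ± 0.11; the rise at 48 h had been 1.06 ± 0.10, and the difference between the times, 0.02 ± 0.15, did not pass (adjusted p 0.929). STX5 had 42.1, 45.4 and 44.7 CPM in deprived cells at 24 h, against 21.2, 20.6 and 24.9 CPM in controls, a log2 rise of 0.99 ± 0.09 (adjusted p 1.88e-08). Its fitted rise was nominally smaller at 48 h than at 24 h, and the difference of -0.19 ± 0.12 did not pass the test (adjusted p 0.267). The other rises at 24 h were BNIP1 at 0.88 ± 0.10, STX18 at 0.73 ± 0.09, BET1 at 0.71 ± 0.10, GOSR1 at 0.70 ± 0.05 and BET1L at 0.44 ± 0.07 on the log2 scale. YKT6 and SEC22B, the R SNAREs of the set, did not pass at 24 h: YKT6 stood at 105, 109 and 115.3 CPM in deprived cells at 24 h, against 105, 98.9 and 104 CPM in controls (adjusted p 0.144), and SEC22B at 77.1, 70.9 and 71.5 CPM in deprived cells at 24 h, against 73.3, 71 and 66.4 CPM in controls (adjusted p 0.403). The SEC22B groups overlapped at 24 h, and its fitted difference of 0.06 turned to -0.014 with upper-quartile scaling and to -0.018 with library totals.

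**Figure D2:**
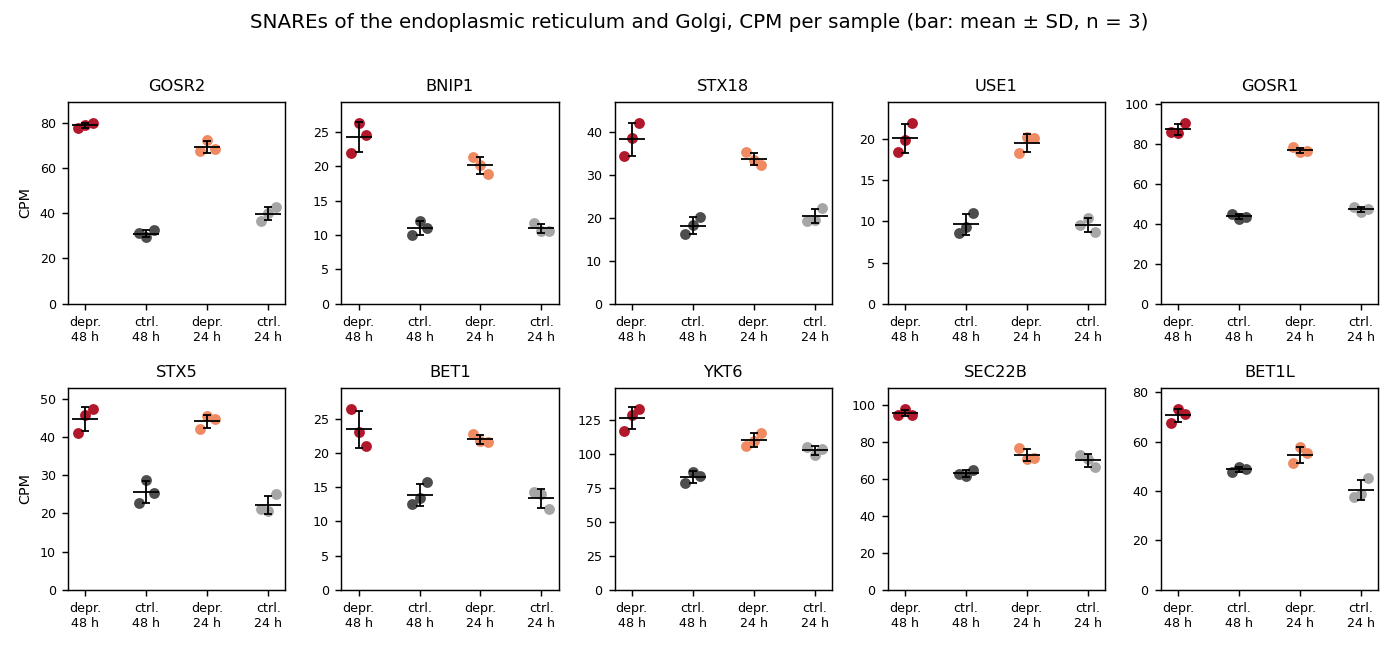
CPM of the 10 ER and Golgi SNAREs in every sample (points) with mean ± SD (n = 3 each), in deprived (depr.) and control (ctrl.) cells at 48 h and then at 24 h; each vertical axis starts at 0. At 48 h all 10 are called higher, beside 33.5% of all tested genes. At 24 h 8 are called higher, beside 28.8%, and YKT6 and SEC22B do not pass.

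Promoter letters of the ER and Golgi genes are shown because these genes moved together. RefSeq promoter windows (GRCh38.p14, 250 bases before to 50 after each gene's start) were matched for 31 of the 35 members, and BET1L, USE1, SNAP25 and STX17 had no entry. The core ACGTG, found in unfolded-protein-response elements and in E-boxes, was on either strand in 5 of the 8 ER and Golgi windows (62.5%), 3 of 7 trans-Golgi and early endosomal, 2 of 6 late endosomal and lysosomal and 1 of 10 plasma membrane windows, in 11 of the 31 member windows (35.5%) and in 5900 of all 27305 windows (21.6%). This core was searched after the expression values had been seen. The stretches below are read 5′ to 3′ on the gene's strand, with the core, or its reverse complement CACGT, in capitals and positions counted from the gene's start:
STX5, chr11:62832057-62832086, minus strand, bases -35 to -6: gggtggggttACGTGtaggtgACGTGgccg
GOSR2, chr17:46922940-46922999, plus strand, bases -220 to -161: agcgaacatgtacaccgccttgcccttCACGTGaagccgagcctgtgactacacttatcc
BNIP1, chr5:173144351-173144410, plus strand, bases -180 to -121: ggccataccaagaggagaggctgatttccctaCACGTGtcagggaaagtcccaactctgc
BET1, chr7:94004426-94004485, minus strand, bases -130 to -71: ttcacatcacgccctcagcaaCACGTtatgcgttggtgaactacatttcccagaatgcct

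STX5 holds the core at 2 places 11 bases apart, and GOSR2 and BNIP1 hold the palindrome CACGTG, which reads as the core on either strand. Positions in these stretches are counted from the RefSeq start. By the GENCODE positions given above, STX5 spans 62806897 to 62832088 on the minus strand, so its whole stretch lies inside the gene. The GOSR2, BNIP1 and BET1 stretches lie before the gene by the GENCODE positions. STX18 is the fifth ER and Golgi window with the core, downstream of its start. GOSR1, SEC22B and YKT6, which also rose at 48 h, had no core in their windows. Outside this set the core was in the STX2, STX6, SNAP29, VAMP4, VAMP7 and STX10 windows. Those of STX2, STX6 and SNAP29 hold the palindrome CACGTG too. Of these genes, STX6, SNAP29 and VAMP7 rose at 48 h, and STX2, VAMP4 and STX10 did not pass. The longer form TGACGTG was in the STX5 window and in 1 of 31 member windows in all (3.23%), against 2.0% of all windows. The lysosomal CLEAR element TCACGTGA, which contains the core, was in the GOSR2 and STX6 windows, 6.45% of the members against 1.04% of all. The C/EBP-ATF element TGATGNAA was in 0 of 31, against 3.67% of all. The antioxidant response element TGACNNNGC was in 6 of 31 (19.4%), against 13.6%. CCACG, an ER stress element part whose matches can overlap the core, was in 19 of 31 (61.3%), against 37.9% of all windows. By step it was in 6 of 8 ER and Golgi windows, 8 of 10 plasma membrane windows (80.0%), 3 of 6 late endosomal and lysosomal windows and 2 of 7 trans-Golgi and early endosomal windows, so it was not particular to the ER and Golgi genes. CCAAT was in 10 of 31 (32.3%), against 35.7%. All were searched on both strands, and a match describes letters, not binding.

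At the trans-Golgi network and early or recycling endosomes, 3 of 7 SNAREs rose at 48 h (42.9%) and 1 fell (14.3%), beside 33.5% and 34.9% of all tested genes. VTI1A, the Qb SNARE that pairs with STX16 and STX6 for transport from endosomes to the trans-Golgi network (chromosome 10, 112446998 to 112818744), had 146, 144 and 145 CPM in deprived cells at 48 h, against 96.1, 93.3 and 82.7 CPM in controls. The 3 deprived samples were within 2 CPM of each other and well above the controls, at a log2 rise of 0.68 ± 0.05 (adjusted p 1.63e-09). VTI1A had 144, 141 and 139 CPM in deprived cells at 24 h, against 119.8, 116 and 115.2 CPM in controls, a log2 rise of 0.28 ± 0.05. STX16, the Qa SNARE of that complex, had 94.7, 81.8 and 87.9 CPM in deprived cells at 48 h, against 72.1, 64.9 and 67.5 CPM in controls, and 74.9, 70.4 and 66.2 CPM in deprived cells at 24 h, against 53.3, 52.5 and 56.9 CPM in controls. Its log2 rise was 0.37 ± 0.06 at 48 h and 0.38 ± 0.07 at 24 h, and the readthrough transcript STX16-NPEPL1, listed with 68.9% of the counts of STX16, rose by 1.02 ± 0.09 at 48 h and by 0.35 ± 0.10 at 24 h. Estimated counts can be split between these overlapping genes, so STX16 is uncertain.

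VAMP3, or cellubrevin, is the R SNARE of recycling endosomes (chromosome 1, 7771269 to 7781432) and was the only member of this set to fall with TMM scaling. It had 76.5, 80.3 and 79.98 CPM in deprived cells at 48 h, against 83.7, 93.5 and 100.8 CPM in controls. It had 72.4, 68.2 and 69.4 CPM in deprived cells at 24 h, against 84.9, 87.2 and 87 CPM in controls. At each time the deprived samples lay below every control, and it fell by 0.23 ± 0.06 at 48 h (adjusted p 0.00235) and by 0.30 ± 0.06 at 24 h (adjusted p 0.000336). STX6, a Qc SNARE of the trans-Golgi network, had 62.1, 61.2 and 62.8 CPM in deprived cells at 48 h, against 55.6, 51.6 and 58.5 CPM in controls. Its log2 rise of 0.17 ± 0.06 (adjusted p 0.0133) was lost with upper-quartile scaling (adjusted p 0.101) and without control 48 h replicate 2 (0.0735). STX10, a Qc relative of STX6, had 61.5, 66.5 and 64.9 CPM in deprived cells at 48 h, against 68.8, 70.7 and 68.3 CPM in controls, which did not pass (adjusted p 0.0757) but passed as a fall of 0.16 with upper-quartile scaling (adjusted p 0.00637) and of 0.13 with library totals (0.0212). STX12, which acts in recycling endosomes, and VAMP4, an R SNARE of the trans-Golgi network, did not pass at either time, with fitted log2 differences between -0.02 and 0.13.

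Among late endosomal, lysosomal and autophagosomal SNAREs, 3 of 7 rose (42.9%) and 2 fell (28.6%) at 48 h, shares close to the 33.5% and 34.9% of all tested genes, and the median log2 difference was -0.09. At 24 h 1 fell (14.3%, beside 26.9% of all tested genes), and 0 rose by edgeR's adjusted p, its unadjusted p or DESeq2 (beside 28.8% by edgeR's adjusted p). A second, STX7, also fell at 24 h with upper-quartile scaling (-0.18, adjusted p 0.0118), library totals (-0.18, 0.0139) and genes averaging 5 CPM or more (-0.13, 0.0465), against -0.11 and 0.107 as fitted. STX17, SNAP29 and VAMP8 are the Qa, Qbc and R SNAREs that join autophagosomes to lysosomes, and they did not move together. STX17 (chromosome 9, 99906633 to 99970341) had 30.9, 29 and 28.1 CPM in deprived cells at 48 h, against 39, 35.1 and 34.7 CPM in controls, and fell by 0.31 ± 0.07 (adjusted p 0.000414). Every deprived sample was below every control. SNAP29 (chromosome 22, 20858983 to 20891218) had 52, 54 and 56.5 CPM in deprived cells at 48 h, against 38, 39 and 37.8 CPM in controls, a log2 rise of 0.50 ± 0.06 (adjusted p 1.7e-07). SNAP29 overlaps PI4KA on the opposite strand by 435 bases, and PI4KA, with 201% of its counts, fell by 0.55 ± 0.07 at 48 h. VAMP8 (chromosome 2, 85561562 to 85582031) had 21.2, 23 and 23.5 CPM in deprived cells at 48 h, against 22.8, 25.6 and 23.8 CPM in controls, which overlapped and did not pass (adjusted p 0.35). VAMP8 had 20.6, 19 and 17.6 CPM in deprived cells at 24 h, against 25.8, 21.6 and 25.5 CPM in controls, and fell by 0.35 ± 0.09 (adjusted p 0.00178), while STX17 and SNAP29 did not pass at 24 h (adjusted p 0.206 and 0.0971).

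VAMP7, the R SNARE of lysosome fusion with the plasma membrane, had 43.1, 41.5 and 40.8 CPM in deprived cells at 48 h, against 31.8, 35.2 and 37.2 CPM in controls, a log2 rise of 0.27 ± 0.07 (adjusted p 0.00183). VTI1B, the Qb SNARE of late endosome fusion, had 77, 75.5 and 77.8 CPM in deprived cells at 48 h, against 68.7, 66.5 and 64.1 CPM in controls, a log2 rise of 0.21 ± 0.06 (adjusted p 0.00255). It overlaps ARG2 on the opposite strand by 4646 bases, and ARG2, with 24.9% of its counts, rose by 1.59 ± 0.10. STX7, its Qa partner, had 48.3, 45.6 and 47.8 CPM in deprived cells at 48 h, against 52.7, 49.9 and 53.6 CPM in controls, and fell by 0.14 ± 0.05 (adjusted p 0.0268). That call was lost with DESeq2 (adjusted p 0.0791), with no filter (0.144), with the compared groups alone in the fit (0.0951), and without control 48 h replicate 1 (0.0678), control 48 h replicate 3 (0.1) or deprived 48 h replicate 2 (0.126). STX8, the Qc partner, had 12.7, 12.7 and 13 CPM in deprived cells at 48 h, against 13.6, 14.8 and 15.7 CPM in controls, and did not pass (adjusted p 0.0555), but passed as a fall of 0.26 with upper-quartile scaling (adjusted p 0.0162), of 0.23 with library totals (0.0346), of 0.24 among genes averaging 5 CPM or more (0.0267) and of 0.26 without control 48 h replicate 1 (0.0291).

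Of 9 tested SNAREs of the plasma membrane, 5 rose (55.6%) and 1 fell (11.1%) at 48 h, beside 33.5% and 34.9% of all tested genes. At 24 h 2 rose (22.2%) and 3 fell (33.3%), close to the 28.8% and 26.9% of all tested genes. STX3, the Qa SNARE that sorts to the apical surface of epithelial cells (chromosome 11, 59713456 to 59805882), had 78.8, 84.1 and 83.9 CPM in deprived cells at 48 h, against 40.8, 41.9 and 37.8 CPM in controls. It had 59.8, 56.1 and 55.3 CPM in deprived cells at 24 h, against 43.2, 44.6 and 47.1 CPM in controls. The deprived samples were above every control at each time, by 2.05-fold at 48 h (log2 1.03 ± 0.06, adjusted p 1.1e-11) and by 1.27-fold at 24 h (log2 0.34 ± 0.06, adjusted p 7.64e-05). The pseudogene FABP5P7 overlaps STX3 and had 17.2% of its counts; it stood at -0.21 ± 0.19 at 48 h, which did not pass, and fell by 1.17 ± 0.20 at 24 h. STX4, the basolateral Qa SNARE (chromosome 16, 31032889 to 31042975), had 28.9, 28 and 30.1 CPM in deprived cells at 48 h, against 16.6, 18.1 and 16.9 CPM in controls, a log2 rise of 0.75 ± 0.09 (adjusted p 2.39e-07). STX4 had 13.2, 15.8 and 15.2 CPM in deprived cells at 24 h, against 16.9, 13.6 and 15.8 CPM in controls, the groups overlapped, and no difference passed (adjusted p 0.561). SNAP23, the Qbc SNARE that serves most non-neuronal exocytosis (chromosome 15, 42491233 to 42545356), was likewise separated at 48 h. Its values were 46.4, 48.7 and 47.1 CPM in deprived cells at 48 h, against 30.4, 31.1 and 32 CPM in controls, a log2 rise of 0.61 ± 0.07 (adjusted p 4.43e-07). SNAP23 had 36.7, 34.2 and 35.5 CPM in deprived cells at 24 h, against 38.2, 36.2 and 30.3 CPM in controls, and did not pass (adjusted p 0.823). On the opposite strand it overlaps LRRC57, listed with 26.2% of its counts, and AC018362.3, with 22.5%. LRRC57 stood at 0.17 ± 0.18 (adjusted p 0.419) and AC018362.3 at 0.44 ± 0.21 (0.0682) at 48 h, and neither passed.

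STX1A, the Qa SNARE best known from synapses (chromosome 7, 73699206 to 73719672), had 48.9, 51.6 and 54.2 CPM in deprived cells at 48 h, against 29.3, 29.3 and 25.9 CPM in controls, and 26.7, 30.4 and 25.8 CPM in deprived cells at 24 h, against 18.7, 22.4 and 20.7 CPM in controls. Deprived samples were above controls at each time, with log2 rises of 0.87 ± 0.08 and 0.43 ± 0.09 (adjusted p 9.19e-09 and 0.000307). It overlaps BUD23 on the opposite strand by 5956 bases, and BUD23, with 331% of its counts, stood at 0.07 ± 0.07 at 48 h and did not pass. The R SNAREs went opposite ways at 48 h. VAMP1, or synaptobrevin 1 (chromosome 12, 6462237 to 6470987), had 4.09, 3.15 and 3.82 CPM in deprived cells at 48 h, against 14.5, 11.9 and 10.9 CPM in controls. It had 7.36, 7.90 and 5.65 CPM in deprived cells at 24 h, against 14.2, 12.9 and 13.7 CPM in controls. It was lower in every deprived sample, at 0.297 of the control level at 48 h, where it fell by 1.75 ± 0.15 on the log2 scale (adjusted p 3.59e-09), and at 0.511 at 24 h, where it fell by 0.97 ± 0.14 (adjusted p 7.38e-06). VAMP2, or synaptobrevin 2 (chromosome 17, 8159149 to 8163546), had 34, 37.1 and 38.4 CPM in deprived cells at 48 h, against 20.3, 22.7 and 32.5 CPM in controls. Its log2 rise of 0.54 ± 0.14 passed (adjusted p 0.00168), although control replicate 3 came within 2 CPM of the lowest deprived sample. The protein-coding gene AC129492.3 overlaps VAMP2 on the same strand by 3827 bases and had 7.73% of its counts. AC129492.3 stood at 0.69 ± 0.32 at 48 h, which did not pass (adjusted p 0.0634), and fell by 0.80 ± 0.32 at 24 h (0.044).

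SNAP47, a Qbc SNARE without a membrane anchor, had 26.1, 30.4 and 28.7 CPM in deprived cells at 24 h, against 34.9, 32.9 and 37.1 CPM in controls, and fell by 0.30 ± 0.07 at 24 h (adjusted p 0.00163). It had 27.7, 28.6 and 30.8 CPM in deprived cells at 48 h, against 32.2, 31.7 and 33.6 CPM in controls, which did not pass (adjusted p 0.0512) but did with upper-quartile scaling (0.00873), with library totals (0.0249), with genes averaging 5 CPM or more (0.0162) and without deprived 48 h replicate 3 (0.0309). It overlaps JMJD4 on the opposite strand by 4987 bases. JMJD4, with 34% of its counts, rose by 1.05 ± 0.11 at 48 h and by 1.09 ± 0.11 at 24 h. STX2, or epimorphin, had 30.005, 28 and 27.2 CPM in deprived cells at 24 h, against 31.5, 30.9 and 34.1 CPM in controls, and fell by 0.18 ± 0.07 (adjusted p 0.033). That call was lost with DESeq2 (0.0604), with no filter (0.0803), and without control 24 h replicate 1 (0.0505), control 24 h replicate 3 (0.148), deprived 24 h replicate 2 (0.0928) or deprived 24 h replicate 3 (0.119). STX11, known from cytotoxic lymphocytes, was scarce at 1.67 to 2.5 CPM in deprived cells at 48 h, against 1.1 to 1.93 CPM in controls, and did not pass (adjusted p 0.0748) but did without control 48 h replicate 3 (0.0224) or deprived 48 h replicate 1 (0.0435). SNAP25, the neuronal Qbc SNARE, and VAMP5, a muscle R SNARE, had at most 8 counts in any sample and were not tested.

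**Figure D3:**
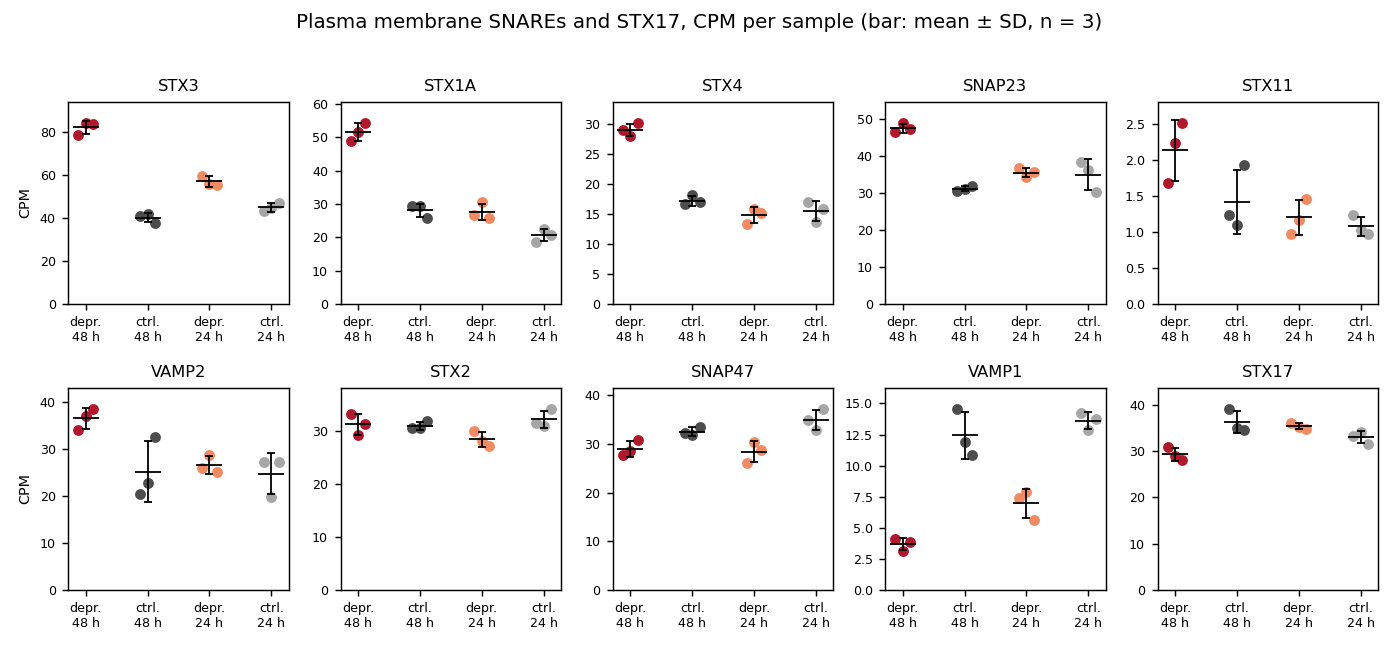
CPM of the 9 tested plasma membrane SNAREs and of STX17 in every sample (points) with mean ± SD (n = 3 each), in deprived (depr.) and control (ctrl.) cells at 48 h and then at 24 h; each vertical axis starts at 0. STX4 and SNAP23 are separated at 48 h and overlap at 24 h, and VAMP1 is lower in deprived cells at each time.

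Whether the effect of deprivation differed between the times was tested directly, as the difference at 48 h minus that at 24 h. Of the 33 members, 11 had a higher effect at 48 h (33.3%) and 2 a lower one (6.06%), beside 16.4% and 19.2% of all tested genes. At the plasma membrane the higher effects were those of STX4 by 0.82 ± 0.13 (adjusted p 4.98e-05), STX3 by 0.69 ± 0.08 (3.26e-06), SNAP23 by 0.58 ± 0.10 (0.000212) and STX1A by 0.45 ± 0.12 (0.00555) on the log2 scale. In the ER and Golgi set, 5 of 10 passed, namely SEC22B by 0.54 ± 0.08 (1.98e-05), GOSR2 by 0.54 ± 0.09 (7.85e-05), YKT6 by 0.50 ± 0.08 (0.000114), STX18 by 0.35 ± 0.13 (0.0413) and GOSR1 by 0.30 ± 0.07 (0.00327). VTI1A at 0.40 ± 0.08 (0.00043) and SNAP29 at 0.39 ± 0.08 (0.000873) complete the 11. Lower effects were found for VAMP1 at -0.78 ± 0.20 (0.00545) and STX17 at -0.41 ± 0.09 (0.00213). The call of STX18 was lost, with adjusted p-values of 0.0626 to 0.116, when any of 7 samples was left out: control 48 h replicates 1 and 2, deprived 48 h replicates 2 and 3, control 24 h replicate 3, and deprived 24 h replicates 2 and 3.

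Control cells themselves changed between the times for some members. Control cells at 48 h, against control cells at 24 h, had higher BET1L, STX1A, STX16 and STX8 and lower GOSR2, YKT6, VTI1A and VAMP7, which is 4 of 33 each way (12.1%) beside 12.7% and 10.4% of all tested genes, close to the background. These control samples also enter the comparisons of media. GOSR2 averaged 30.9 ± 1.54 CPM in control cells at 48 h and 39.7 ± 2.95 CPM at 24 h (SD, n = 3 each), and it fell by 0.36 ± 0.06 between them (adjusted p 0.000521). In deprived cells GOSR2 averaged 78.7 ± 0.935 CPM at 48 h and 69.3 ± 2.60 CPM at 24 h. VTI1A likewise averaged 90.7 ± 7.08 CPM in controls at 48 h and 117 ± 2.58 CPM at 24 h, a fall of 0.37 ± 0.05, while deprived cells stood at 145 ± 0.864 CPM and 141 ± 2.65 CPM. YKT6 fell by 0.30 ± 0.06 and VAMP7 by 0.20 ± 0.07 in the same comparison of controls. STX1A rose by 0.45 ± 0.09, STX16 by 0.33 ± 0.07, STX8 by 0.28 ± 0.09 and BET1L by 0.27 ± 0.07. Without control 24 h replicate 1 the calls of BET1L, STX8 and VAMP7 were lost, with adjusted p-values of 0.0569, 0.0998 and 0.167. The call of STX8 was also lost without control 24 h replicate 3 or control 48 h replicates 2 or 3 (0.0865 to 0.141), with library totals (0.0726), with DESeq2 (0.0618), with no filter (0.0923) and with the compared groups alone in the fit (0.0638), and that of VAMP7 without control 24 h replicate 2 or control 48 h replicates 1 or 2 (0.0714 to 0.162).

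Levels between genes were compared per length, as CPM per kilobase of the deposited gene length. Averaged over the 12 samples, BET1L was highest at 84.3, followed by GOSR1 at 67.4, STX10 at 53.9, GOSR2 at 49.0, YKT6 at 38.1 and VAMP3 at 37.6, and STX7, whose deposited length is 15845 bases, was lowest of those above 1 at 3.07. This order depends on the deposited lengths, which are 637 bases for BET1L and 947 for GOSR1, against 4174 for VTI1A. Without length, BET1L averaged 70.7 CPM in deprived cells at 48 h, below VTI1A at 145 CPM and YKT6 at 126 CPM. Summed over the 10 ER and Golgi genes, the level per kilobase was 435.0 ± 13.97 in deprived cells at 48 h and 242.4 ± 6.64 in controls, and 374.1 ± 7.0 in deprived cells at 24 h and 247.5 ± 8.36 in controls (SD, n = 3 each). That sum was 50.7% of the total over all 35 genes in deprived cells at 48 h, against 39.2% in controls, and 50.02% in deprived cells at 24 h, against 39.8% in controls. BET1L and GOSR1 were the largest parts of the ER and Golgi sum, at 111 and 92.3 in deprived cells at 48 h. In controls at 48 h they stood at 76.8 and 46.2. The plasma membrane sum was 145.9 ± 5.16 in deprived cells at 48 h and 108.9 ± 5.79 in controls, and 105.5 ± 4.9 in deprived cells at 24 h and 108.4 ± 6.41 in controls. Sums for late endosomes, lysosomes and autophagosomes were 107.7 in deprived cells and 106.7 in controls at 48 h, and 100.8 in deprived cells and 104.6 in controls at 24 h. At the trans-Golgi network and early endosomes they were 169.5 in deprived cells and 160.2 in controls at 48 h, and 167.5 in deprived cells and 161.8 in controls at 24 h. No test was made on these sums.

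**Figure D4:**
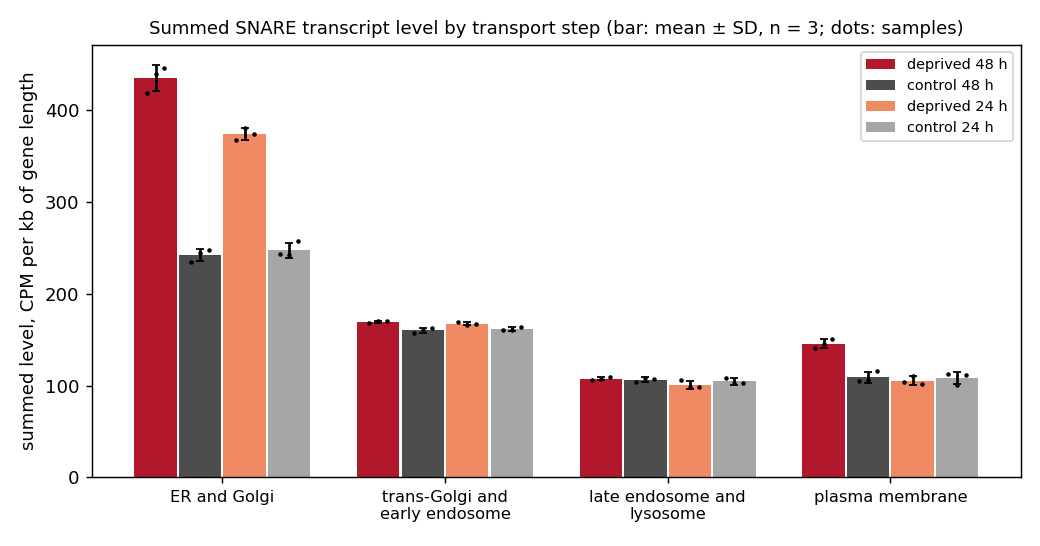
Summed SNARE level per transport step in CPM per kilobase of gene length, as the mean (bars) ± SD of 3 samples (dots) in deprived and control cells at 48 h and then at 24 h. The ER and Golgi sum is 435.0 in deprived cells at 48 h and 242.4 in controls, while the late endosomal sums lie between 100.8 and 107.7 in every group.

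By SNARE class, at 48 h all 5 Qb genes rose, as did 6 of 11 Qa genes, 4 of 6 Qc genes, 2 of 3 tested Qbc genes and 4 of 8 tested R genes, beside 33.5% of all tested genes. The falls were 2 of 11 Qa genes (STX17 and STX7) and 2 of 8 tested R genes (VAMP1 and VAMP3), beside 34.9% of all tested genes. At 24 h 0 of the 8 tested R genes and 0 of the 3 Qbc genes rose by edgeR's adjusted p, its unadjusted p or DESeq2, and 3 R genes fell, namely VAMP1, VAMP3 and VAMP8 (37.5%, beside 26.9% of all tested genes). In the other classes 5 of 11 Qa, 4 of 5 Qb and 3 of 6 Qc genes rose at 24 h, beside 28.8% of all tested genes. Falls at 24 h were not confined to R genes, as 1 of 3 Qbc genes (SNAP47, 33.3%) and 1 of 11 Qa genes (STX2, 9.09%) also fell. Class and transport step overlap, and the Qb genes GOSR1, GOSR2 and BNIP1 are also ER and Golgi genes counted above. Differences between classes were not tested.

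Proteins that work with SNAREs were counted in the same way, and each count is to be read beside the 33.5% of all tested genes that rose and 34.9% that fell at 48 h, and the 28.8% and 26.9% at 24 h. SM proteins clasp SNARE bundles as they form, and 4 of 8 rose and 1 fell at 48 h as at 24 h, where upper-quartile scaling called 4 lower. SCFD1, the Sly1 partner of STX5, rose by 1.02 ± 0.09 at 48 h and by 0.93 ± 0.09 at 24 h. VPS33A, the SM subunit of the lysosomal HOPS tether, rose by 1.15 ± 0.09 at 48 h and 0.30 ± 0.10 at 24 h, and VPS45, which binds STX16, by 0.53 ± 0.08 at 48 h and 0.27 ± 0.08 at 24 h. Of the 4 genes that take used bundles apart, 3 rose at 48 h and 0 at 24 h by edgeR's adjusted p, its unadjusted p or DESeq2. By edgeR's test of the difference, the effect was higher at 48 h than at 24 h for 3 (2 by DESeq2), beside 16.4% of all tested genes. In controls 2 of the 4 were lower at 48 h than at 24 h, beside 10.4% of all tested genes, and the part of that shift was not tested. NAPA, the alpha-SNAP adaptor, rose by 0.76 ± 0.08, NAPB, its neuronal relative, by 0.39 ± 0.09, and NSF, the ATPase, by 0.37 ± 0.06. At 24 h their adjusted p-values were 0.24, 0.694 and 0.272.

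Genes of the coats that bud vesicles between the ER and Golgi were mostly higher. The lists also count ARF1 and GBF1 (COPI) and PREB and SEC16A (COPII), which are not coat subunits. Of 12 COPII genes, 9 rose and 1 fell at 48 h (median log2 0.45), and 7 rose and 1 fell at 24 h (0.27). SEC23B, an inner coat subunit, rose by 1.59 ± 0.06 at 48 h and 1.06 ± 0.06 at 24 h, SAR1B, the GTPase that starts the coat, by 0.94 ± 0.07 and 0.39 ± 0.07, and SEC16A, the ER exit site scaffold, by 0.77 ± 0.06 and 0.57 ± 0.06. Of 10 tested COPI genes, 9 rose and 1 fell at 48 h (0.37), and 6 rose and 1 fell at 24 h (0.21). ARCN1 (delta-COP) rose by 0.66 ± 0.05 at 48 h and COPZ1 (zeta-COP) by 0.67 ± 0.05, whereas COPG2 (gamma-2-COP) fell by 0.86 ± 0.08 at 48 h and by 0.44 ± 0.07 at 24 h.

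Tethers hold a vesicle at its target before SNAREs engage. Among 13 Golgi and ER tethers (COG, Dsl1 and p115), 8 rose and 3 fell at 48 h, and 6 rose and 4 fell at 24 h. COG5 and COG3, subunits of the COG complex, rose by 1.497 ± 0.05 and 1.23 ± 0.06 at 48 h, and GOLGA2, or GM130, by 0.85 ± 0.05. Of 5 GARP and EARP genes, which act at the trans-Golgi network and endosomes, 3 rose and 1 fell at 48 h, and 2 rose at 24 h. VPS50 rose by 1.09 ± 0.09 and VPS52 by 0.75 ± 0.06 at 48 h, and VPS51 fell by 0.64 ± 0.07. Of 7 HOPS and CORVET genes of endosomes and lysosomes, 4 rose and 2 fell at 48 h, and at 24 h 1 fell and 0 rose by edgeR's adjusted p or DESeq2 (1 by edgeR's unadjusted p). VPS18, VPS11 and VPS39 rose by 0.60 ± 0.06, 0.54 ± 0.08 and 0.42 ± 0.06 at 48 h. Of 9 exocyst genes, whose complex tethers vesicles at the plasma membrane, 3 rose and 2 fell at 48 h and 2 rose and 2 fell at 24 h. EXOC6B rose by 0.63 ± 0.05 and EXOC7 by 0.60 ± 0.05 at 48 h, and EXOC6 fell by 0.33 ± 0.09.

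Of 15 tested regulators of exocytosis, 7 rose (46.7%) and 6 fell (40%) at 48 h, beside 33.5% and 34.9% of all tested genes, and 4 rose (26.7%) and 6 fell (40%) at 24 h, beside 28.8% and 26.9%. UNC13D, the priming factor Munc13-4, rose by 1.36 ± 0.09 at 48 h and 1.45 ± 0.09 at 24 h. SYT7, a calcium sensor, fell by 0.99 ± 0.06 at 48 h and 0.39 ± 0.06 at 24 h, and SYTL2, a Rab27 effector, fell by 1.87 ± 0.13 at 48 h and 1.30 ± 0.12 at 24 h.

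**Figure D5:**
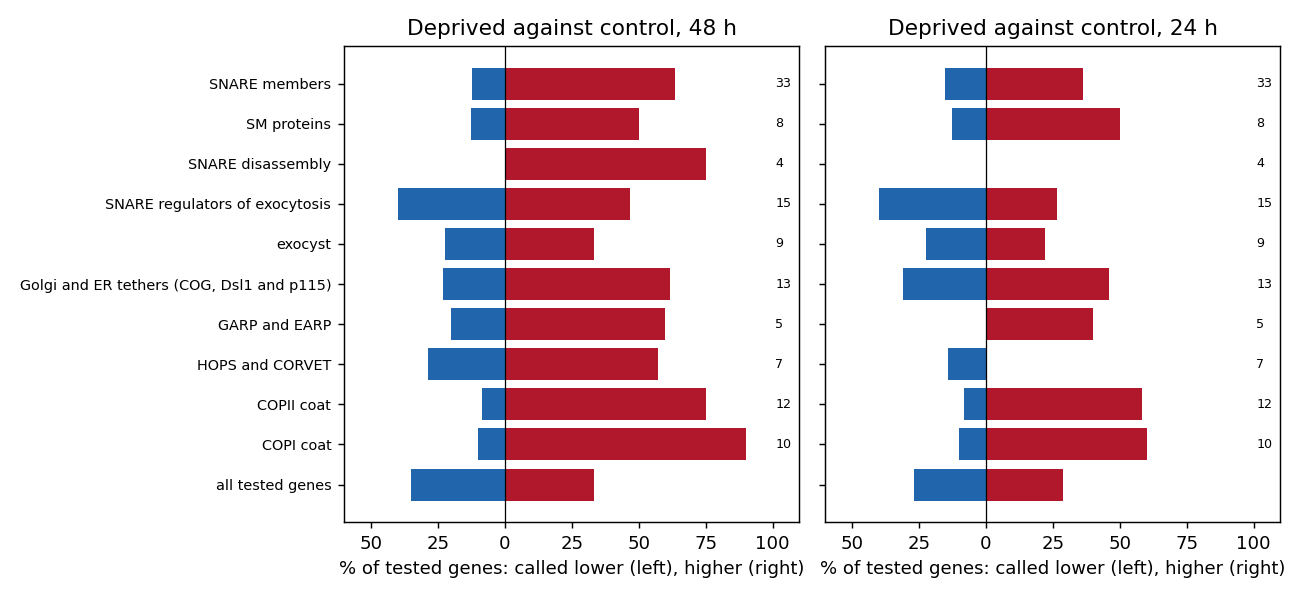
Percent of tested genes called higher (right, red) and lower (left, blue) in deprived over control cells, at 48 h (left panel) and 24 h (right panel). Rows are the SNARE genes, 9 lists of related trafficking genes and all tested genes. The number of tested genes stands at the right of each row except that of all tested genes. At 48 h 63.6% of SNARE genes are called higher, beside 33.5% of all tested genes.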

How the data were processed

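RNA-seq libraries of 12 HCT116 samples, 3 in each of 4 groups taken from the sample titles, were analysed. Values in the deposited table are estimated counts for each gene that the authors left without normalization, with the gene length in bases beside them. In the submitters' processing notes stand RSEM, HISAT, fastp and GRCh38, and their versions, the library strandedness and the annotation release were not given in the sources used here. A TPM table is mentioned in the labels, yet column totals ran unequally between 19146108 and 24179533, so values were taken as estimated counts and rounded. The 316 rows without a gene name held 0.748% to 1.647% of counts and were left out.

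Genes passing filterByExpr (minimum count 10, minimum total 15) left 16994 genes, scaled by TMM. A single edgeR 4.0.16 model in R 4.3.3 (glmQLFit, then glmQLFTest) held the 4 group means over the 12 samples, with no replicate term, and p-values were adjusted by Benjamini-Hochberg over every tested gene at a threshold of 0.05. The SE is the log2 fold change divided by the root of F, and the biological coefficient of variation was 6.4%. Replicates differed by more than sampling noise (chi-square per degree of freedom 2.99 to 8.14). Alternatives were RLE, upper-quartile and library-total scaling, DESeq2 1.42.0, no filter, a mean of at least 5 CPM, the replicate block, only the compared groups, and leaving out each sample.

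The members, their transport steps and the other lists were chosen with earlier results of these data known. All 35 members are named, and the 3 genes with the smallest adjusted p at 48 h in each other list. A further list, of SNARE-like genes outside the members, is not reported here. Positions are from GENCODE release 29, matched by gene identifier, and promoter sequences from RefSeq (GRCh38.p14). Of reads shared by overlapping genes, the counting rule is unknown.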

Additional observations from a re-analysis of the deposited data

Results flagged for a closer look

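For 13 of the 33 tested SNARE genes, the effect of deprivation differed between 48 h and 24 h by edgeR's test of that difference. It is given here as the log2 effect at 48 h minus that at 24 h. The effect was higher at 48 h for 11 (33.3%) and lower for 2 (6.06%), beside 16.4% and 19.2% of all tested genes. At the plasma membrane the difference was 0.82 for STX4, 0.69 for STX3, 0.58 for SNAP23 and 0.45 for STX1A, and -0.78 for VAMP1. Among ER and Golgi genes it was 0.54 for SEC22B, 0.54 for GOSR2, 0.50 for YKT6, 0.35 for STX18 and 0.30 for GOSR1. VTI1A stood at 0.40 and SNAP29 at 0.39, and STX17 at -0.41. For STX4, SNAP23, SEC22B, YKT6, SNAP29 and STX17 the comparison at 24 h had not passed by itself. GOSR2, YKT6 and VTI1A were also lower in control cells at 48 h than in control cells at 24 h, and the part of that shift in the difference was not tested. Groups of 3 samples were not searched for outlying samples.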

How the results depend on the processing

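Of the 17 members called at 24 h, 16 kept their call and direction under every alternative, as did 23 of the 25 called at 48 h and 12 of the 13 called for the difference between times; STX2, STX6, STX7 and STX18 are the exceptions described above. The count of members lower at 48 h was 7 with upper-quartile scaling, 7 with library totals and 7 with a mean of at least 5 CPM, against 4 as reported. In controls at 48 h over 24 h, the count lower was 7 with library totals, against 4, and the count higher was 2 to 6 when samples were left out in turn, against 4.

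The signs that turned all belonged to values that did not pass the test. At 24 h, VAMP4 stood at -0.0030 with library totals, VAMP7 at -0.027 with upper-quartile scaling and -0.031 with library totals, SNAP23 at -0.049, -0.053 and -0.0012 with upper-quartile scaling, library totals and a mean of at least 5 CPM, and SEC22B at -0.014 and -0.018 with the first and second of these. At 48 h, STX2 stood at -0.046, -0.010 and -0.023 under the same 3 settings, and VAMP4 at 0.0012 with RLE, 0.0051 with DESeq2 and 0.0039 with the compared groups alone. Leaving out samples in turn gave ranges of -0.15 to 0.0038 for STX4, -0.0085 to 0.28 for STX11, -0.070 to 0.022 for STX12, -0.036 to 0.18 for VAMP2 and -0.069 to 0.094 for SNAP23 at 24 h, of -0.030 to 0.063 for STX2 and -0.059 to 0.050 for VAMP4 at 48 h, and of -0.048 to 0.14 for BET1 and -0.051 to 0.13 for USE1 for the difference between times. The cause was not tested.

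With the replicate number as a block (replicate block), 21 members were higher and 5 lower at 48 h, 12 and 5 at 24 h, 11 and 3 for the difference between times, and 4 and 5 in controls. Same-numbered samples correlated at -0.00986 to 0.126 in their deviations from the group means. Over the 3 pairs of groups compared, 6 of 9 correlated best with their own number. With 3 samples per group these values cannot settle whether same-numbered samples were handled together. Scaling moved the median of all genes by less than 0.1 on the log2 scale. Depth limits STX11, SNAP25 and VAMP5. The overlapping genes named above also stay uncertain. For pairs on opposite strands the library strandedness is not given. For GOSR2, STX16 and VAMP2, whose named overlaps are on the same strand, strand would not separate the reads, and the counting rule is unknown.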
